A study of Mus musculus with 13 samples.

Results

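The 8 genes described here encode the parts of the endothelial wall through which solutes, lipids, drugs and water cross it: Plvap, Cav1, Cav2, Mfsd2a, Abcb1a, Abcg2, Aqp1 and Lsr. They were chosen by name as genes of caveolae, fenestrae and barrier transport. All 8 were listed among the 24984 genes of the tumor tables and among the 24421 genes of the sprout tables, and all 8 passed the filter on low counts in both. RNA-Seq was performed on mouse endothelial cells (ECs) of 2 origins. The tumor ECs were CD31+CD105+ cells negative for CD45, sorted from orthotopic tumors of E0771 cells, a mouse mammary carcinoma line, in C57BL6/J mice whose age the labels do not give. Each tumor library was made from 100 cells. The Apelin-depleted group (Apelin KO) came from Apln-/- mice carrying shApln tumor cells (n = 3), and the control group (Apelin WT) from wild-type mice carrying shRenilla tumor cells (n = 6), so that Apelin was removed from host and tumor together and the effects of these removals cannot be told apart. The sprout ECs were CD31+ cells from embryoid bodies of haploid mouse embryonic stem cells on a C57BL/6x129 background, all grown with VEGFA164 at 30 ng/mL. Their Apln gene carried a gene trap, either in sense orientation, which stops the transcript (Apln STOP, n = 2), or turned to antisense by Cre, which restores it (Apln GO, n = 2). The labels name Apelin peptide at 1000 nM or DMSO as an addition after sprouting had begun, in the same words for all 4 libraries, and do not say which library received which. The study's legends assign DMSO to the STOP and Apelin to the GO cultures. On that account genotype, Cre and added peptide differ together and cannot be told apart. For the tumor ECs the study's legend gives the group sizes without stating that each library was a separate tumor, no source used here says that the sprout libraries came from separate cultures, and the p-values measure the spread between these libraries only.

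As background, caveolae are flask-shaped pits of the plasma membrane that carry cargo across ECs, and caveolin-1, encoded by Cav1, is the coat protein they depend on. Caveolin-2 forms mixed oligomers with it. Plvap encodes the protein of the diaphragms that span caveolae and the fenestrae of leaky capillaries, and it is low in the mature blood-brain barrier and raised in the vessels of many tumors. Mfsd2a imports lysophosphatidylcholine lipids and holds down caveolar transcytosis in brain ECs. Abcb1a and Abcg2 encode efflux pumps of the barrier (P-glycoprotein and the breast cancer resistance protein) that return drugs to the blood. Aqp1 is a water channel of ECs outside the brain, and Lsr (angulin-1) recruits tricellulin to the corners where 3 cells meet.

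The libraries held 4661044 to 14455093 counts per library in the tumor ECs and 12327030 to 16804071 in the sprout ECs. A count of 3, taken as the floor, corresponds to 0.211 to 0.596 CPM (counts scaled to the TMM library sizes) and to 0.177 to 0.244 CPM. The labelled target was checked first. Apln was at 12.1, 8.51 and 2.44 CPM in the Apelin KO libraries and at 416 to 1033 CPM in the Apelin WT libraries, and it was the single gene called in tumor ECs. In the sprout ECs it did not go with the labels. Apln was at 66.1 and 80.2 CPM in the libraries labelled Apln STOP and at 58.2 and 65.9 CPM in those labelled Apln GO (log2 fold change 0.24, SE 0.16, edgeR adjusted p = 0.367), and Apln STOP and Apln GO below stand for the libraries labelled so, on which every direction for the sprout ECs rests. All 12 endothelial markers had counts in each of the 13 libraries. Their summed level was 8826 to 12966 CPM in Apelin WT, 11818 to 15781 CPM in Apelin KO, 2614 to 2771 CPM in Apln GO and 703 to 951 CPM in Apln STOP. The fall in the sprout ECs touches every result of that set. In such bulk libraries fewer ECs in the sort and less RNA of these genes per EC cannot be told apart.

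The promoter windows of 3 members that lay lower in Apln STOP are shown, since Cav1 and Cav2 are neighbours and Aqp1 lies on the same chromosome 6. Cav2 (chr6:17281185-17289115, plus strand of GRCm38) ends 17.2 kb before Cav1 (chr6:17306335-17341452, plus strand) begins, and Aqp1 lies at chr6:55336432-55348555 on the plus strand. Abcg2 lies on this chromosome too (chr6:58584523-58695676, plus strand), and its log2 fold change in the sprout ECs was 0.02. Each window runs from 250 bases before to 50 bases after a RefSeq start site on GRCm38.p6. Capitals mark AGGAAG or its reverse complement CTTCCT, the core bound by ETS factors, a family that includes the endothelial factor Erg. The windows are chr6:17306085-17306384 for the first start of Cav1, chr6:17280935-17281234 for Cav2 and chr6:55336049-55336348 for Aqp1.
Cav1: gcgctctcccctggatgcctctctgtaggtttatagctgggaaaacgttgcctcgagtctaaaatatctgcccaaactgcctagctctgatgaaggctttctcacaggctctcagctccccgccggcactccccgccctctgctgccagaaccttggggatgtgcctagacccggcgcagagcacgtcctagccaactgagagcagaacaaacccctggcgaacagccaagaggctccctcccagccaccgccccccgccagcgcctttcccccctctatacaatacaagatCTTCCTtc
Cav2: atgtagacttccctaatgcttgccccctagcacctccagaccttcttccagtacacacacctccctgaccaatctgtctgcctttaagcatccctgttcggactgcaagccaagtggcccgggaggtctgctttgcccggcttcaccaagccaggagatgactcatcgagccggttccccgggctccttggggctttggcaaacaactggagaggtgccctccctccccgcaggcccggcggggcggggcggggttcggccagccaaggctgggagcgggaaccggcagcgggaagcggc
Aqp1: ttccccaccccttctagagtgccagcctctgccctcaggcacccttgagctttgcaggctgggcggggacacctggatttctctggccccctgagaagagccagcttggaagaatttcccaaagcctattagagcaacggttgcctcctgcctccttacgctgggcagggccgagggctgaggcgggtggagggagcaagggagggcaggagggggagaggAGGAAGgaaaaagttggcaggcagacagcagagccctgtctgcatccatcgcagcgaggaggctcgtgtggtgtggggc
The search covered both strands. The Cav1 window held 1 match, 42 bases after the start, the Aqp1 window held 1 match, 29 bases before it, and the Cav2 window held 0. Of the other windows, the 3 of Abcg2 held 1, 2 and 1 matches, that of Abcb1a 2, and those of the second Cav1 start, Mfsd2a and Lsr 0. The window of Abcb1a (chr5:8566841-8567140) lay before the annotated span of the gene (chr5:8660077-8748575, plus strand). The set of windows searched held no window for Plvap. Among all 32851 RefSeq promoter windows of this length, 35.4% held the motif. GC content was 59.3% for Cav1, 64.3% for Cav2 and 62.7% for Aqp1.

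The order of the members was compared per kilobase of transcript, with the gene lengths that RSEM gave. In Apelin WT tumor ECs the mean level ran from Plvap (1311 ± 491 CPM per kb, SD, n = 6) over Aqp1 (876 ± 260) and Cav1 (472 ± 138) to Cav2 (62.6 ± 35.6) and Abcg2 (41.7 ± 18.2). Lsr (4.21 ± 3.06), Abcb1a (3.67 ± 1.29) and Mfsd2a (1.12 ± 1.77) closed the order. The diaphragm gene, the water channel and caveolin-1 thus formed the upper end, and the barrier genes Abcb1a, Lsr and Mfsd2a the lower end. The ranges of neighbours overlapped, except that every library had Cav1 (lowest 204 CPM per kb) above Cav2 (highest 101), and Abcg2 (lowest 28.2) above Lsr (highest 7.33). Apelin KO libraries gave the same order except that Abcb1a (6.00 ± 2.11 CPM per kb, n = 3) stood above Lsr (2.87 ± 2.87).

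In Apln GO sprouts, Plvap again led at 120 ± 18.1 CPM per kb (n = 2), followed by Lsr (32.8 ± 1.48), Abcg2 (28.6 ± 3.44), Cav1 (23.7 ± 0.90) and Cav2 (5.99 ± 0.02). Abcb1a (1.74 ± 0.36), Aqp1 (1.51 ± 0.56) and Mfsd2a (0.97 ± 0.30) were lowest, and the ranges of Abcb1a and Aqp1 overlapped, as did those of Aqp1 and Mfsd2a, whereas other neighbours did not overlap. Aqp1, next to Plvap in tumor ECs, was therefore near the bottom in sprout ECs, where the ratio of Plvap to Aqp1 was 50.9 to 72.0 on the CPM scale against 0.76 to 1.28 in the tumor libraries. Lsr stood the other way, from the lower end to the place after Plvap. Epithelial markers summed to 738 to 1314 CPM in the sprout libraries against 11.3 to 218 CPM in the tumor libraries, and pluripotency markers to 1963 to 5223 CPM against 0.56 to 19.9 CPM, and their part in the Lsr level was not tested. In Apln STOP the order was Lsr (37.1 ± 10.4 CPM per kb), Plvap (31.9 ± 4.33) and Abcg2 (29.1 ± 4.86), whose ranges overlapped, then Cav1 (7.04 ± 4.99), Abcb1a (2.15 ± 0.02), Cav2 (1.85 ± 0.74), Mfsd2a (0.82 ± 0.04) and Aqp1 (0.35 ± 0.01), of which Abcb1a and Cav2 overlapped. The deposited TPM, which are also per length, placed Plvap at 221 and 159 in Apln GO and at 40.8 and 48.6 in Apln STOP, and Lsr at 52.7 and 51.5 against 61.8 and 41.3. Tumor and sprout libraries were prepared by different protocols, and levels are set side by side without a test.

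**Figure D1:**
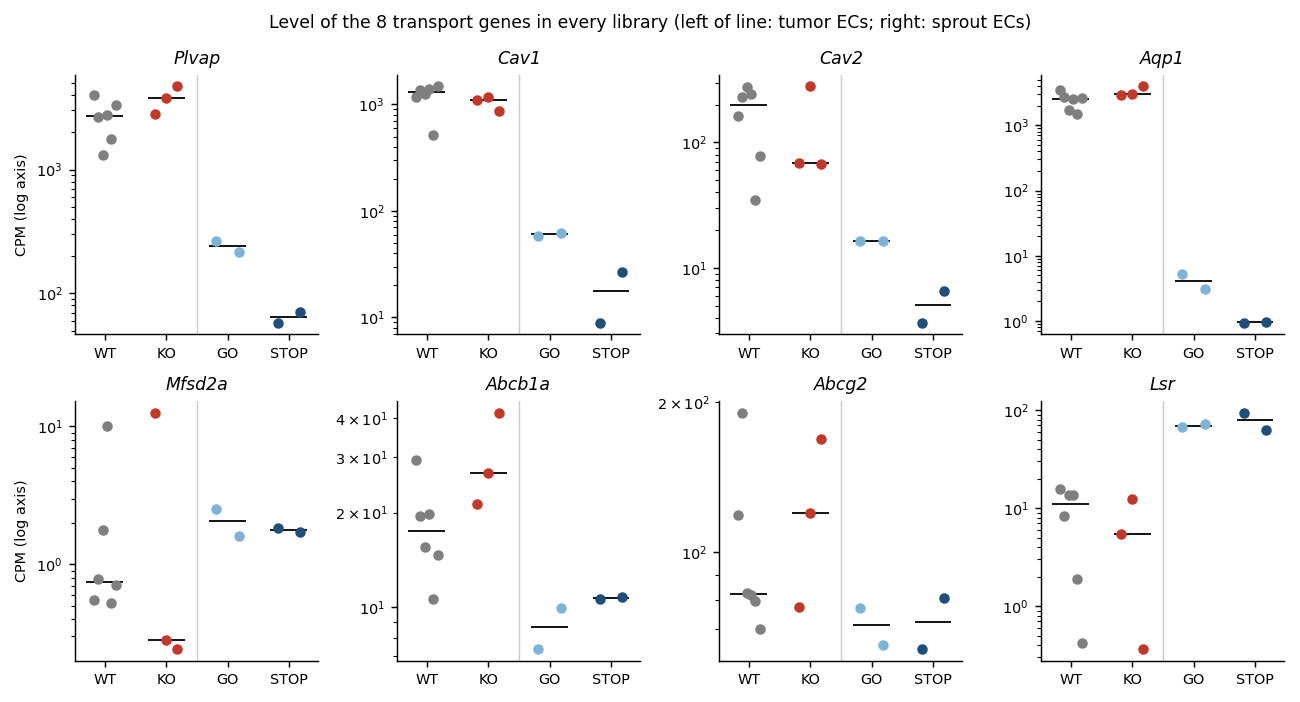
CPM of each member in every library on log axes, with 1 point per library and a line at the group median; WT and KO are the tumor ECs and GO and STOP the sprout ECs. The STOP libraries of Plvap, Cav1, Cav2 and Aqp1 lie below both GO libraries, whereas KO and WT overlap in all 8 panels.

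The first comparison asked whether tumor ECs lacking Apelin differed in these genes. None of the 8 members was called. The edgeR quasi-likelihood test called 0 lower and 0 higher at an adjusted p under 0.05 and an absolute log2 fold change over 1, where 0.00765% of all 13073 tested genes were called lower, which is Apln alone, and 0% higher. No member reached an unadjusted p under 0.05 either, against 2.94% of all genes lower and 1.87% higher, and DESeq2 also called 0 members. The groups of libraries overlapped for all 8, against 1.27% of genes without overlap and lower and 1.06% without overlap and higher. In simulated counts of this design the test recovered 24.7% of genes changed by 2 on the log2 scale and 68.9% of those changed by 4. The changed genes were drawn at random from all tested genes, and most changes of 2 were missed among them. These shares do not give the power for single members. The SE of the members' log2 fold changes ran from 0.29 (Aqp1) to 1.46 (Mfsd2a).

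Among the structural genes, Plvap was at 2811, 3751 and 4698 CPM in Apelin KO and at 1319 CPM (lowest), 2720 CPM (median) and 4013 CPM (highest) in Apelin WT. The KO libraries lay in the upper part of the WT range and 1 lay above it (log2 fold change 0.51, SE 0.33, adjusted p = 1.00, edgeR). Cav1 was at 1103, 1182 and 873 CPM in Apelin KO and between 518 and 1480 CPM, with a median of 1315 CPM, in Apelin WT. All 3 KO libraries were thus below the WT median and inside the WT range (log2 fold change -0.19, SE 0.31). Cav2 was at 68.8, 280 and 66.8 CPM in Apelin KO and between 34.9 and 278 CPM, with a median of 197 CPM, in Apelin WT. It spread over almost the same range in both groups (log2 fold change -0.31, SE 0.62), and its sign turned when Apelin KO replicate 1 or 3 was left out (0.01 and 0.03). Its highest libraries, Apelin KO replicate 2 and Apelin WT replicate 3, also had the highest summed lymphatic endothelial markers (2008 and 2265 CPM, against 93.5 to 1014 CPM in the others), whose part in the Cav2 level was not tested.

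The water channel Aqp1 was at 2950, 3053 and 3936 CPM in Apelin KO and between 1499 and 3490 CPM, with a median of 2557 CPM, in Apelin WT. All KO libraries lay above the WT median and 1 lay above the WT range (log2 fold change 0.46, SE 0.29, adjusted p = 1.00, edgeR). The P-glycoprotein gene Abcb1a was at 21.2, 26.8 and 41.6 CPM in Apelin KO and between 10.6 and 29.4 CPM, with a median of 17.5 CPM, in Apelin WT. Here too the KO libraries lay above the WT median and 1 lay above the WT range (log2 fold change 0.71, SE 0.49). The second pump, Abcg2, was at 77.7, 120 and 168 CPM in Apelin KO and between 70.1 and 190 CPM, with a median of 82.4 CPM, in Apelin WT (log2 fold change 0.23, SE 0.37), and it turned to -0.07 without Apelin KO replicate 3. Its highest library, Apelin WT replicate 2, also had the highest summed levels of fibroblast markers (5032 CPM, against 41.5 to 205 CPM in the other libraries) and of mural markers (451 CPM against 63.9 to 243 CPM). The part of these cells in its Abcg2 level was not tested.

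The barrier genes Mfsd2a and Lsr were present in some libraries and close to the floor in others. Mfsd2a was at 12.6, 0.281 and 0.244 CPM in Apelin KO, from 74, 4 and 2 counts, and at 10.1 CPM in Apelin WT replicate 4 against 0.52 to 1.77 CPM in the other 5 WT libraries. Apelin KO replicate 1 held nearly all of the KO signal, Apelin WT replicate 4, with 51 counts, stood far above the other WT libraries, the next of which had 18 counts, and the log2 fold change of 0.85 (SE 1.46) became -3.12 without Apelin KO replicate 1. These same libraries had the highest summed levels of the 10 leukocyte markers, 1400 CPM in Apelin KO replicate 1 and 880 CPM in Apelin WT replicate 4, against 44.5 to 143 CPM in the other 7, although the sort excluded CD45+ cells. The part of leukocytes in the Mfsd2a level was not tested. Lsr was at 5.44, 12.5 and 0.366 CPM in Apelin KO, the last from 3 counts, and between 0.424 and 15.5 CPM, with a median of 10.98 CPM, in Apelin WT. Both groups held libraries at the floor and libraries above 10 CPM (log2 fold change -0.55, SE 1.13, 0.01 without Apelin KO replicate 3). Of the 50-base stretches of Lsr transcripts 31.5% also occur in the gene Gm4673, and 18.6% of those of Abcb1a occur in another gene, mostly its paralog Abcb1b, so that counts of these 2 members are less certain. Abcb1b itself was at 6.96 ± 5.02 CPM (SD, n = 3) in Apelin KO and 7.97 ± 5.92 CPM (n = 6) in Apelin WT.

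Among the 6 Apelin WT libraries alone, the members differed widely in how steady they were. The highest library exceeded the lowest 2.33-fold for Aqp1, 2.71-fold for Abcg2, 2.78-fold for Abcb1a, 2.85-fold for Cav1 and 3.04-fold for Plvap. The ratio was 7.97 for Cav2, 19.4 for Mfsd2a and 36.6 for Lsr. These ratios depend on single libraries. Mfsd2a was at 10.1 CPM in replicate 4 and next highest at 1.77 CPM in replicate 3. Cav1 and Cav2 were at 518 and 34.9 CPM in replicate 5, and next lowest at 1180 CPM in replicate 1 and 77.9 CPM in replicate 6. Lsr was at 0.424 CPM in replicate 6 and next lowest at 1.91 CPM in replicate 5. Caveolin-2 was thus far more variable between these pools of 100 cells than its partner caveolin-1, and the ratio of Cav1 to Cav2 ran from 4.23 to 19.0 over the 9 tumor libraries, against 2.44 to 4.13 in the sprout libraries.

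The levels of some members went together from library to library. Over the 9 tumor libraries, on log2(CPM + 1), Plvap and Aqp1 had Pearson's r = 0.93 and Spearman's rho = 0.90, and r = 0.92 without the 2 libraries farthest from the median of Plvap. Within the 6 Apelin WT libraries r was 0.91. Abcb1a followed Aqp1 (r = 0.91, rho = 0.92, and 0.79 without the 2 farthest) and Plvap (r = 0.79, rho = 0.80, and 0.84). The diaphragm gene, the water channel and P-glycoprotein were therefore high and low in the same libraries. Cav1 and Cav2 had r = 0.72 and rho = 0.60, and r = 0.76 within the 6 Apelin WT libraries. Without the 2 libraries farthest from the median of Cav1, r was 0.08. Their relation over the 9 libraries thus rested largely on those, among them Apelin WT replicate 5, in which both genes were lowest. This library also had the fewest genes with a count (13466), followed by Apelin KO replicate 3 (13997), the lowest KO library for Cav1, Cav2 and Lsr, against 15619 to 16681 in the other 7. The part of this in the members' levels was not tested. Cav2 went with Lsr (r = 0.80, rho = 0.68, and 0.75 without the 2 farthest). Plvap and Cav1 had r = 0.20 and rho = -0.17, but r = 0.73 without the 2 farthest libraries. These are 9 points that share depth and the endothelial share of each library, taken from 28 pairs, and are given as a description.

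**Figure D2:**
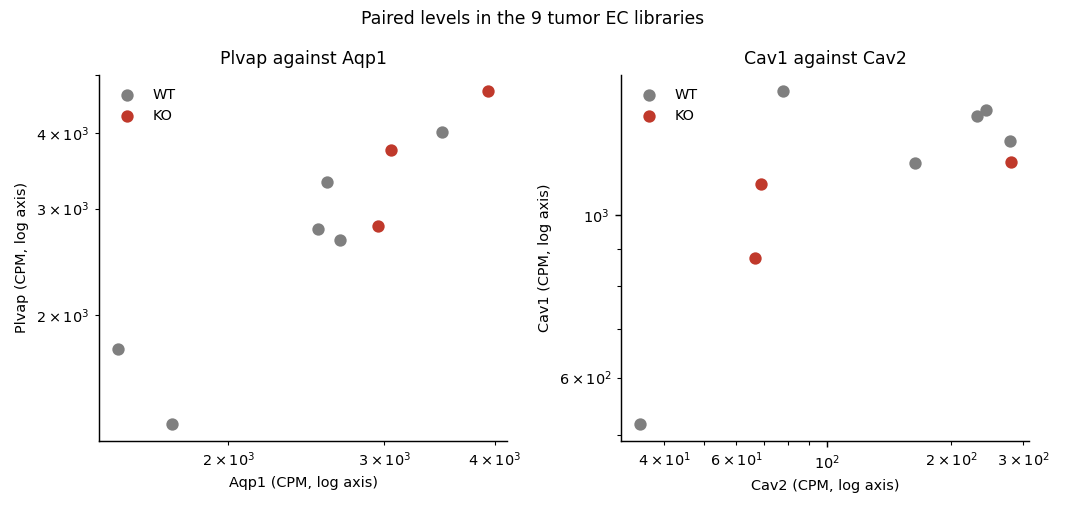
CPM of Plvap against Aqp1 and of Cav1 against Cav2 in the 9 tumor EC libraries, both axes logarithmic and 1 point per library (grey Apelin WT, red Apelin KO). Plvap and Aqp1 lie along a line in both groups, with r = 0.93, whereas the Cav1 and Cav2 points spread and 1 WT library is low for both.

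Among 9278 other genes with a mean of 10 CPM or more, the 3 whose levels were most like those of each member over these 9 libraries were Rcbtb2, Tpst2 and B4galt4 for Plvap (r = 0.97 for each). For Cav1 they were Hccs, Hoxb9 and Tmed2 (r = 0.98, 0.98 and 0.97), for Cav2 Adam9, Accs and Tlnrd1 (0.98, 0.97 and 0.97) and for Aqp1 Plod1, Rtl8a and Vegfc (0.96, 0.95 and 0.95). For Abcb1a they were Akr7a5, Dmd and Vegfc (0.96, 0.94 and 0.93) and for Abcg2 Tm4sf1, Osmr and Katnbl1 (0.94, 0.93 and 0.90). Vegfc, the growth factor of lymphatic vessels, stood in the lists of both Abcb1a and Aqp1, which themselves had r = 0.91. These genes were picked as the highest of 9278 correlations over 9 libraries. Values this high can arise there without any relation, and they are given as a description. Mfsd2a and Lsr were below the mean level set for this search.

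The second comparison asked the same of sprouting ECs with the Apln trap in sense or antisense orientation. Of the 8 members, Plvap, Cav2 and Aqp1 were called lower in Apln STOP and 0 were called higher, against 3.03% and 0.852% of all 14557 genes tested. Unadjusted, 4 members were lower at p under 0.05 and 0 higher, against 14.3% and 12.4% of all genes, and DESeq2 called 3 lower and 0 higher. Plvap, Cav1, Cav2 and Aqp1 lay lower in both STOP libraries than in both GO libraries, as did 29.6% of all genes, and Mfsd2a, Abcb1a, Abcg2 and Lsr did not. The median log2 fold change of the members was -0.97 beside 0.01 over all genes. In simulated counts of this design the test recovered 88.2% of 195 genes changed by 2 on the log2 scale and 99% of 200 changed by 4. It also called 22 and 28 unchanged genes there, so that some calls in this set can be false.

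Plvap was at 58.0 and 70.4 CPM in Apln STOP and at 267 and 216 CPM in Apln GO. It fell 3.76-fold (log2 fold change -1.91, SE 0.17, edgeR adjusted p = 0.00263). Its call held in every alternative fit run, with log2 fold changes from -2.07 to -1.75 as each library was left out. Cav2 was at 3.66 and 6.52 CPM in Apln STOP, from 54 and 80 counts, and at 16.5 and 16.4 CPM in Apln GO. It fell 3.24-fold (log2 fold change -1.70, SE 0.32, edgeR adjusted p = 0.0262). Cav1 was at 8.94 and 26.9 CPM in Apln STOP and at 58.6 and 61.8 CPM in Apln GO. The STOP libraries lay below both GO libraries but far apart from each other, and Cav1 was not called (log2 fold change -1.76, SE 0.59, edgeR adjusted p = 0.179). As each library was left out the log2 fold change ran from -2.76 without Apln STOP replicate 2, the higher of them, where it was called (adjusted p = 0.00105), to -1.14 without STOP replicate 1, where it was not (0.0590). These STOP libraries, replicates 1 and 2, also differed in the summed fibroblast markers (460 and 2946 CPM) and mural markers (279 and 463 CPM), which were at 2922 and 610 CPM and at 686 and 302 CPM in GO replicates 1 and 2. The part of these cells in the Cav1 level was not tested. Aqp1 was at 0.948 and 0.978 CPM in Apln STOP, from 14 and 12 counts, and at 5.25 and 3.07 CPM in Apln GO, from 89 and 38 counts. It fell 4.32-fold at this low level (log2 fold change -2.11, SE 0.47, edgeR adjusted p = 0.0404). The calls of Cav2 and Aqp1 were lost with the replicate number as a block (adjusted p = 0.101 and 0.135) and without STOP replicate 1 (0.125 and 0.218) or GO replicate 1 (0.108 and 0.274). That of Aqp1 was also lost without STOP replicate 2 (0.102) and with RSEM counts (0.0507).

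The other 4 members were not called. Abcb1a was at 10.6 and 10.8 CPM in Apln STOP and at 7.37 and 9.93 CPM in Apln GO, so that the groups did not overlap but lay close (log2 fold change 0.31, SE 0.27, edgeR adjusted p = 0.497). Its paralog Abcb1b was at 26.8 and 22.0 CPM against 17.2 CPM in both GO libraries (0.50, SE 0.20, adjusted p = 0.165). Per length, in TPM, Abcb1b (6.61 to 10.2) stood above Abcb1a (2.94 to 3.93) in all 4 sprout libraries. The ratio of Abcb1a to Abcb1b on the CPM scale was 0.40 to 0.58 in the sprout libraries and 1.03 to 17.9 in the tumor libraries. Abcg2 was at 63.9 and 81.1 CPM in Apln STOP and at 77.3 and 65.2 CPM in Apln GO, where the GO values lay between the STOP values (log2 fold change 0.02, SE 0.17, adjusted p = 0.944). Lsr was at 94.2 and 62.9 CPM in Apln STOP, around the GO values of 67.3 and 71.8 CPM (0.18, SE 0.20, adjusted p = 0.609). Mfsd2a was at 1.83 and 1.71 CPM in Apln STOP and within the GO range of 1.61 to 2.54 CPM (-0.24, SE 0.45, adjusted p = 0.772). Libraries did not overlap for Plvap, Cav1, Cav2 and Aqp1, which were lower, and for Abcb1a, which was higher. With 2 libraries a side, 31% of all genes were higher without overlap.

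**Figure D3:**
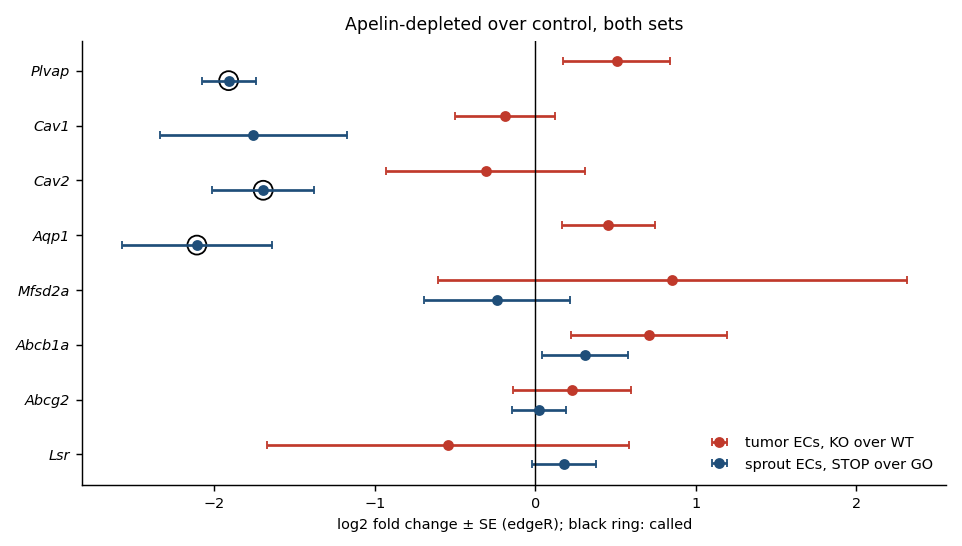
Log2 fold change of each member with its SE from edgeR, red for tumor ECs (Apelin KO over WT) and blue for sprout ECs (Apln STOP over GO); rings mark called genes. Plvap, Cav2 and Aqp1 carry the 3 rings, all blue and at -1.70 or below, and the red points lie between -0.55 and 0.85.

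Markers of other cell types moved with this comparison. All 12 endothelial markers were lower in Apln STOP and 11 were called, with a median log2 fold change of -1.91. The 2 most abundant by mean level over the 4 libraries, Cdh5 (VE-cadherin) and Kdr (VEGFR2), had log2 fold changes of -1.98 and -1.95, Eng of -1.06 and Pecam1, the gene of the CD31 used in the sort, of -0.80, so that Pecam1 (154 CPM) stood above Kdr (116 CPM) in Apln STOP. All 8 pluripotency markers were higher and 1 was called. Their summed level was 5095 to 5223 CPM in Apln STOP and 1963 to 3272 CPM in Apln GO, and the 2 highest by mean level over the 4 libraries were Dppa5a (log2 fold change 1.28, adjusted p = 0.0227, edgeR) and Pou5f1 (0.92, adjusted p = 0.0867). Epithelial markers summed to 954 to 1314 CPM against 738 to 765 CPM, lymphatic endothelial markers to 110 to 117 CPM against 228 to 266 CPM, and erythroid markers to 15.2 to 57.6 CPM against 195 to 289 CPM. The part of these cells in the members' values was not tested. The 3 called members fell by about as much as the endothelial markers did.

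To set the members beside the endothelial content of each library, the mean log2(CPM + 1) of the 12 endothelial markers was subtracted from that of each member. In sprout ECs the difference between Apln STOP and Apln GO on this scale was -0.15 for Plvap, -0.13 for Cav1, 0.19 for Cav2 and 0.38 for Aqp1, with overlapping libraries in each case. These values are small beside their dependence on single libraries and settings. As each library was left out they ran from -0.27 to -0.02 for Plvap, from 0.02 to 0.36 for Cav2 and from 0.11 to 0.66 for Aqp1. Plvap turned to 0.02 with a marker mean that left out Eng and Pecam1, and Cav2 was at 0.49 with a pseudocount of 5 CPM. Cav1 was at -0.70 without STOP replicate 2 and 0.44 without STOP replicate 1, which lay above and below the GO libraries (at -1.37 and -1.23). The value of Aqp1 depended on the pseudocount, at 0.14 with 0.5 CPM, 0.99 with 5 CPM and -0.26 with none, the last an alternative chosen after the data were seen. Plvap, for example, stood 0.53 ± 0.06 above the marker mean in Apln STOP and 0.68 ± 0.17 above it in Apln GO (SD, n = 2). Mfsd2a (1.61), Abcg2 (1.76), Lsr (1.89) and Abcb1a (2.04) were higher in Apln STOP on this scale, without overlap. Abcg2 went from 1.06 ± 0.13 below the marker mean in Apln GO to 0.70 ± 0.01 above it in Apln STOP. On this scale 96.6% of all 14557 genes were higher in Apln STOP without overlap, because the marker mean that is subtracted fell by 1.75, and the median difference over all genes was 1.75. The 4 members that were higher thus lay near the background of all genes. With 2 libraries a side an exact test cannot reach 0.05, and these are values without a test.

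On the same scale in tumor ECs, the difference between Apelin KO and Apelin WT was 0.23 for Plvap, 0.15 for Aqp1, 0.35 for Abcb1a, -0.09 for Abcg2, -0.16 for Mfsd2a, -0.47 for Cav1, -0.69 for Cav2 and -0.89 for Lsr. The groups overlapped for all 8, and the exact permutation test, two-sided over 84 splits with a smallest possible p of 0.0238, gave p from 0.214 to 0.905 before adjustment. Aqp1 was at nearly the same distance above the marker mean in all 3 KO libraries (2.04 ± 0.01, SD, n = 3), against 1.89 ± 0.33 in Apelin WT (n = 6). The 12 endothelial markers themselves had a median log2 fold change of 0.36, 11 of them higher and 0 called by edgeR. Of the markers of other cells, all 9 tested for leukocytes (log2 fold changes of 0.53 to 2.10) and all 4 for lymphatic ECs (median 1.22) were on the higher side in Apelin KO, and all 5 for fibroblasts (median -4.64) and 7 of 8 for mural cells (-1.34) on the lower side, with 0 called by edgeR and 0, 1, 1 and 2 genes of these lists at an unadjusted p under 0.05. The part of these cells in the members' values was not tested.

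**Figure D4:**
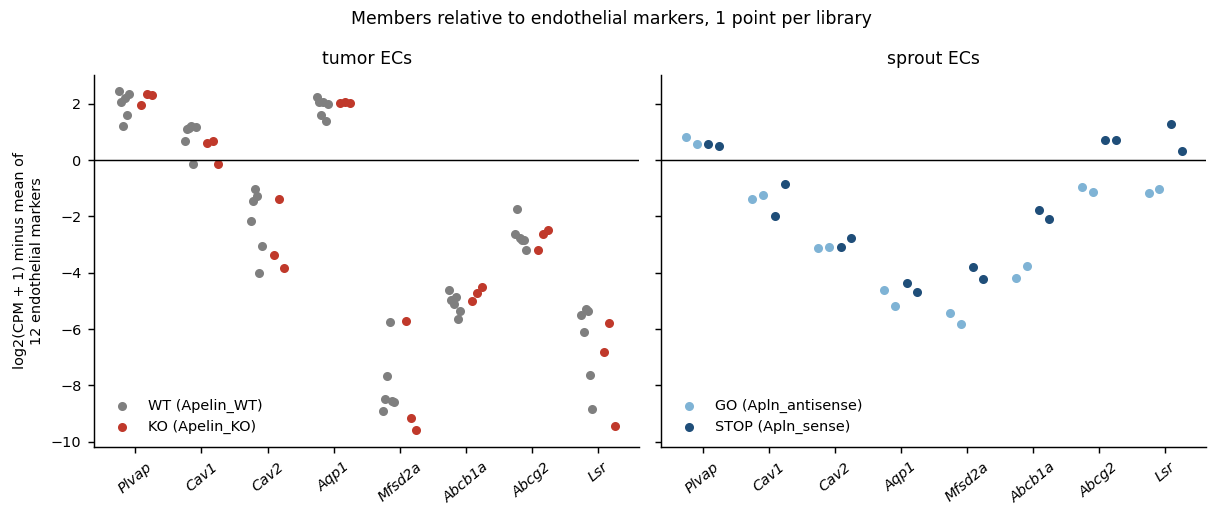
Level of each member on log2(CPM + 1) minus the mean of 12 endothelial markers, 1 point per library, for tumor ECs (grey WT, red KO) and sprout ECs (light blue GO, dark blue STOP). In the sprout panel the STOP points of Mfsd2a, Abcb1a, Abcg2 and Lsr stand above the GO points, as do those of 96.6% of all genes, and those of the other 4 members overlap with them.

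The effects in tumor and sprout ECs were then compared by a test of the difference itself, limma voom on all 13 libraries with weights per set, over 15762 genes. Plvap was called, with the tumor effect 2.47 above the sprout effect on the log2 scale (SE 0.35, adjusted p = 0.00185). It was the sole member among the 0.983% of genes called. Aqp1 (2.51, SE 0.68, adjusted p = 0.0928) and Cav1 (1.82, SE 0.48, adjusted p = 0.0806) had unadjusted p under 0.05, as did Plvap and 11.9% of all genes, and Cav2 differed by 1.46 (SE 0.91, adjusted p = 0.569). Abcb1a (0.35), Abcg2 (0.19), Mfsd2a (-0.21) and Lsr (-0.89) had adjusted p from 0.857 to 0.974 by limma. The call of Plvap was lost when edgeR was fitted to the 13 libraries (2.37, adjusted p = 0.146), and it remained without any single library (2.28 to 2.66). In simulated counts this test recovered 0% of genes with a difference of 2 and 23.7% with a difference of 4. These counts were drawn with the same mean and dispersion of a gene in both sets. The real sets differ in level and in spread between libraries, so these shares do not describe the power of this test here. Since 11 endothelial markers were called lower in Apln STOP and 0 in Apelin KO, a difference in endothelial content between the sets cannot be told apart from one in Plvap per EC.

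The other genes of these pathways were taken from 8 lists of 103 genes in all. In tumor ECs 0 of the 78 tested were called by edgeR in either direction, with 3 lower and 5 higher at an unadjusted p under 0.05, against 2.94% and 1.87% of all genes. DESeq2 called 1 lower, where it called 94 genes lower in all. The median log2 fold change was 0.12 beside -0.03 over all genes. The gene called by DESeq2 was Ildr2, which encodes angulin-3, a relative of Lsr at tricellular contacts. It was at 2.18 ± 1.52 CPM (SD, n = 3) in Apelin KO and 20.0 ± 8.59 CPM (n = 6) in Apelin WT without overlap (log2 fold change -3.19, SE 0.77, edgeR adjusted p = 0.686). Slco2a1, a prostaglandin transporter, was at 269 ± 24.8 CPM against 117 ± 57.6 CPM, also without overlap (1.21, SE 0.37, adjusted p = 0.906). Both were picked after their values were seen. Of 10 tested genes of the caveola coat and neck, 8 had a positive and 2 a negative log2 fold change, from -0.31 to 0.30.

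In sprout ECs 13 of the 87 tested list genes were called lower and 1 higher, against the 3.03% and 0.852% of all genes called, and the median log2 fold change was -0.11 beside 0.01 over all genes. At an unadjusted p under 0.05, 22 list genes were lower and 14 higher, against 14.3% and 12.4% of all genes. The caveola coat and neck had 0 of 11 called by edgeR, 3 lower at an unadjusted p under 0.05 and 2 called lower by DESeq2. With edgeR, 2 were called lower without STOP replicate 2 and 3 with the crossed replicate block, an alternative chosen after the data were seen. Cavin1, the coat protein that joins caveolin-1, was at 103 CPM in Apln STOP against 328 CPM in Apln GO (log2 fold change -1.67, SE 0.44, edgeR adjusted p = 0.118) and Cavin3 at 7.63 against 19.5 CPM (-1.36, SE 0.43, adjusted p = 0.119). Both were named after their values were seen. Of 11 uptake receptors 3 were called lower, and 4 were lower and 1 higher at an unadjusted p under 0.05. These were Acvrl1 (-1.78, adjusted p = 0.00775), the receptor ALK1, which also takes up LDL, Gpihbp1 (-2.24, adjusted p = 0.0262), which carries lipoprotein lipase to the capillary lumen, and Vldlr (-1.21, adjusted p = 0.0431).

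Of 8 efflux pumps, Abca1, a cholesterol exporter, was called lower (-1.40, adjusted p = 0.0368, edgeR), and Abcc2, an organic anion pump of liver and kidney, was the single list gene called higher (2.10, adjusted p = 0.0443, at 4.72 against 1.12 CPM). At an unadjusted p under 0.05 this list had 1 gene lower and 4 higher. Of 15 solute carriers, Spns2, which exports sphingosine 1-phosphate from ECs, fell by 2.07 on the log2 scale (adjusted p = 0.00917) and Slco2b1 by 2.76 (adjusted p = 0.0476, at 0.265 against 1.80 CPM). Most of this list lay the other way, with 10 of 15 log2 fold changes above 0, a median of 0.28, and 3 genes lower and 5 higher at an unadjusted p under 0.05. Of 5 aquaporins, Aqp8 was called lower beside Aqp1 (-2.70, adjusted p = 0.0425, at 0.930 against 5.93 CPM), with 1 gene lower and 1 higher unadjusted, and 0 of 10 lipid carriers were called by edgeR, with 1 lower and 1 higher at an unadjusted p under 0.05 and 1 lower by DESeq2. With edgeR, 1 lipid carrier was called lower without STOP replicate 2, without a filter on low counts and with the crossed block.

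Of 14 genes of tight and tricellular junctions, the claudin of endothelial tight junctions, Cldn5 (-2.10, adjusted p = 0.0327, edgeR), and paracingulin, Cgnl1 (-1.28, adjusted p = 0.00936), were called lower. The median of this list was 0.14, and 4 genes were lower and 2 higher at an unadjusted p under 0.05. Of 13 genes of the barrier-inducing Wnt pathway 4 were called lower. These were the Norrin receptor Fzd4 (-1.25, adjusted p = 0.0352), its coreceptor Tspan12 (-1.32, adjusted p = 0.0300) and the forkhead factors Foxf2 (-2.67, adjusted p = 0.0356) and Foxq1 (-1.82, adjusted p = 0.0130). The median of this list was -0.41, 12 of its 13 genes lay below 0, and 5 were lower and 0 higher at an unadjusted p under 0.05 by edgeR. The counts of the lists stand beside the same shift of endothelial markers as those of the members. With the replicate block 1 of the 13 lower calls was left and the higher call was lost, and without STOP replicate 1 or GO replicate 1 3 lower calls were left.

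**Figure D5:**
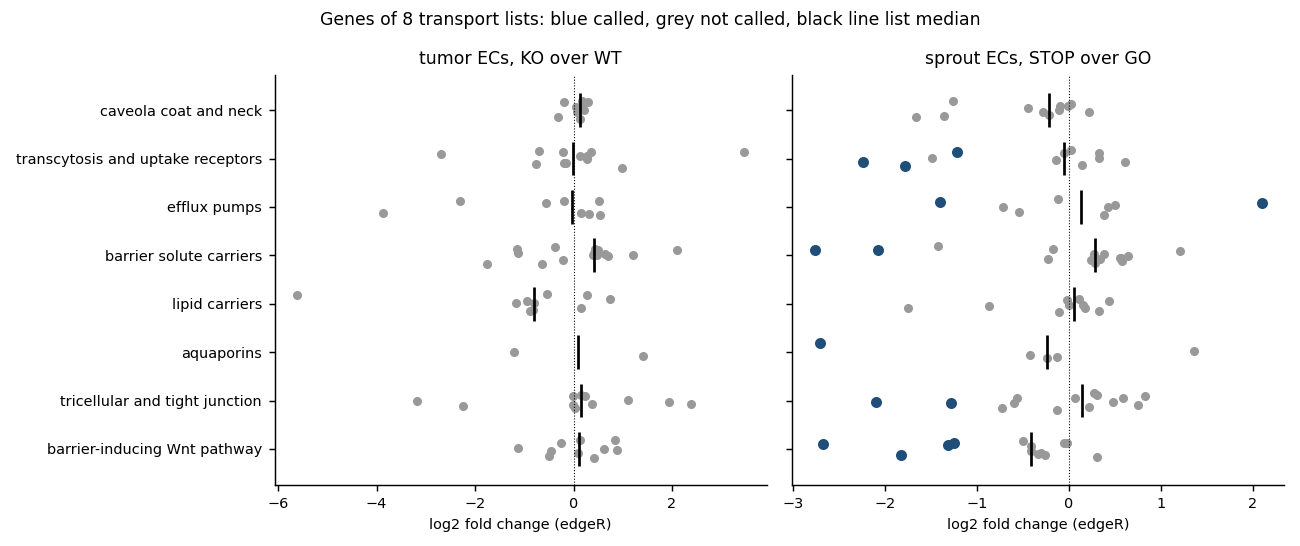
Log2 fold changes of the tested genes of the 8 transport lists in tumor ECs and sprout ECs, blue for called and grey for not called, with a line at each list's median. No tumor point is blue, and the sprout panel has 13 blue points on the lower side and 1, Abcc2, on the higher side.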

How the data were processed

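RNA-Seq was measured in 9 libraries of tumor ECs (3 Apelin KO, 6 Apelin WT) and 4 libraries of sprout ECs (2 Apln sense, called STOP, and 2 Apln antisense, called GO). Groups and replicate numbers come from the sample labels, and the added DMSO or Apelin from the study's legends. The authors sequenced single-end reads and deposited, for the tumor ECs, whole-number counts per gene from featureCounts. Their methods name STAR for the alignment, whereas the submitters' processing notes list Trim Galore 0.5.0, Bowtie2 2.3.4.1, SAMtools 1.9 and Subread 1.6.2. For the sprout ECs the authors aligned with STAR 2.5.0a and deposited counts from HTSeq 0.6.1p1, and expected counts, TPM and gene lengths from RSEM 1.2.25. The build was mm10 (GRCm38) per the labels. Strand settings are not given in the sources used here. HTSeq leaves out reads that align to several places, which lowers genes with near copies. Its closing lines name no gene and were left out (54.1% to 59.1% of all tallied reads, of which reads aligned more than once were 42.6% to 49.6% of the total). Depth is the total over the listed genes.

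Counts were tested in edgeR 4.0.16 (R 4.3.3) with TMM, filterByExpr at a minimum count of 10 and a robust quasi-likelihood fit for each set, adjusted over all genes by Benjamini-Hochberg and called at an adjusted p under 0.05 and an absolute log2 fold change over 1, the thresholds of the study. The SE is the log2 fold change divided by the root of its F. The difference between the sets was tested in limma 3.58.1. CPM use TMM library sizes, and log2 levels use a pseudocount of 1 CPM. RSEM expected counts were rounded and used as an alternative, and TPM to show levels per length. Exact permutation tests used scipy 1.17.1. Promoter windows come from RefSeq (GRCm38.p6), and shared 50-base stretches and positions from the GENCODE annotation of GRCm38. The scripts were tested on simulated data.

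The members, gene lists and tests were chosen with earlier results of these data known. Named genes were all 8 members, the called genes of the lists (at most 12 a comparison by lowest p), Abcb1b, Apln, Pecam1, Cdh5, Eng, the 2 leading genes of marker lists that moved with a member, and the 3 genes most like each member. Abcc2 and Slco2b1 lie past the limit of 12 and were added, as were Ildr2, Slco2a1, Cavin1 and Cavin3, after their values were seen. Alternatives were the DESeq2 1.42.0 Wald test, its size factors, other filters on low counts, no fold-change threshold, the replicate block, limma voom (tumor), RSEM counts (sprout), other pseudocounts and each library left out. The block with crossed replicate numbers and the relative levels with no pseudocount were added after the data were seen.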

Additional observations from a re-analysis of the deposited data

Results flagged for a closer look

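Cav1 in Apelin WT replicate 5 was at 518 CPM, far below the other 5 libraries of its group, whose lowest was 1180 CPM. Cav2 was also lowest in this library (34.9 CPM), which had the fewest genes with a count (13466) of all tumor libraries. Mfsd2a in Apelin WT replicate 4 was at 10.1 CPM, far above the other 5, whose highest was 1.77 CPM. Chance alone sets about 1 in 20 such groups apart by this measure, Dixon's test on CPM, if values are normally distributed. This was not checked, and Mfsd2a was skewed in Apelin WT (mean 2.41 CPM, median 0.74 CPM), so the share may be higher. In all, 8 genes were examined in 1 group of this size. The effect on Plvap differed between tumor and sprout ECs by 2.47 on the log2 scale (SE 0.35, limma adjusted p = 0.00185), with the tumor effect at 0.51 and the sprout effect at -1.91 in the edgeR fits.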

How the results depend on the processing

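Of the members, 0 were called in tumor ECs under all 16 alternatives. The 3 lower calls in sprout ECs became 1 with the replicate block (Plvap), 2 with RSEM counts and 1 to 3 as each library was left out (1 without Apln STOP replicate 1 or GO replicate 1). The cause was not tested. The call of Plvap in the difference between the sets became 0 with edgeR and 1 to 2 as each library was left out, the second being Aqp1 without Apelin WT replicate 1 (2.63, adjusted p = 0.0477) or Cav1 without STOP replicate 2 (2.53, adjusted p = 0.0289). The 13 lower calls of the transport lists in sprout ECs became 1 with the block, 8 with RSEM counts, 16 with DESeq2 or without a filter, 19 with the crossed block and 3 to 13 as each library was left out. The single higher call became 2 with DESeq2, 0 with the block, 0 with RSEM counts and 0 to 3 as libraries were left out. In tumor ECs 1 list gene was called lower by DESeq2.

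Over all genes, the tumor fit called 1 lower and 0 higher, against 94 and 19 with DESeq2, 7 and 9 without a filter, 2 and 0 with the block and 1 and 1 with limma voom. The sprout fit called 441 lower and 124 higher, against 628 and 197 with DESeq2, 632 and 222 without a filter, 365 and 104 with RSEM counts and 41 and 3 with the block. Leaving out a sprout library gave 135 to 548 lower and 12 to 341 higher calls. Same-numbered libraries did not go together (r = -0.07, 0.06 and -0.14 in tumor ECs and -0.43 in sprout ECs). With 2 sprout libraries a group, this value is the same for both numbers and turns sign when the numbers are crossed. Whether libraries were made in pairs cannot be told from these values. Crossing the replicate numbers of the sprout ECs in the block gave 933 and 302 calls, with 3 members called lower.

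The signs that turned were all of effects not called. In tumor ECs Mfsd2a turned to -0.39 with the replicate block, -0.36 with limma voom and -3.12 to 1.41 as libraries were left out (2 of these fits left it below the filter), and Abcg2 to -0.10 with the block and -0.070 to 0.49 as libraries were left out. The same range was -1.34 to 0.029 for Cav2, -1.63 to 0.013 for Lsr, -0.97 to 0.26 for Abcb1b and -0.014 to 0.24 for Pecam1. In sprout ECs it was -0.51 to 0.13 for Mfsd2a, -0.17 to 0.20 for Abcg2 (-0.000397 with RSEM counts) and -0.12 to 0.43 for Lsr. In the difference between the sets it was -1.86 to 0.70 for Mfsd2a (1.03 with edgeR), -0.046 to 0.45 for Abcg2 and -2.10 to 0.55 for Lsr. Relative to endothelial markers in tumor ECs it was -1.38 to 0.55 for Mfsd2a, -0.23 to 0.12 for Abcg2 and -1.68 to 0.16 for Lsr, and in sprout ECs it was -0.70 to 0.44 for Cav1, Aqp1 turned to -0.26 with no pseudocount, and Plvap and Cav1 turned to 0.016 and 0.031 with a marker mean that left out Eng and Pecam1. Counts were low for Mfsd2a and Lsr in tumor ECs and for Aqp1 and Mfsd2a in sprout ECs, with fewer than 100 in most of these libraries. The part of depth in this was not tested.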
